A study of Mus musculus with 26 samples.

Results

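The 9 genes described here encode sensory subtype TFs, the DNA-binding proteins that mark or specify classes of somatosensory neuron in the dorsal root ganglia (DRG): *Prdm12*, *Drgx*, *Tlx2*, *Tlx3*, *Hmx1*, *Shox2*, *Maf*, *Mafa* and *Cux2*. They were named as a list among 21938 protein-coding genes of the GENCODE M21 annotation, and all 9 were found there, *Drgx* under its older symbol *Prrxl1*. Each gene was given a window made of its gene body and 100 kb on each side, and a peak belonged to the gene when its midpoint lay in that window. The 9 windows spanned 2112 kb in all, did not share a peak and held 130 ATAC, 75 H3K27Ac, 44 Runx3, 79 Brn3a and 44 Isl1 peaks.

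The series mapped chromatin and TF binding in TrkC neurons, the early DRG neurons that depend on Runx3, of E11.5 mouse embryos (E, embryonic day). Open chromatin was mapped by ATAC-seq in 3 samples, and CUT&RUN, in which an antibody directs a nuclease to cut out bound DNA, was done for the histone mark H3K27Ac in 5 samples, Runx3 in 8, Brn3a in 2 and Isl1 in 3. A further 5 samples with normal rabbit serum served as controls for the authors and were not used here. The neurons came from DRG, mainly cervical, of embryos with a Cb6F1 background that carried the BAC-E-GFP transgene. This is a bacterial artificial chromosome of the *Runx3* locus with EGFP fused into exon 3. Embryos were pooled within each sample, and most neurons were sorted for GFP, while in some experiments magnetic beads were used instead, on neurons of GFP+ or WT mice, and which samples came from WT mice is not given in the sources used here. No mutant or treated group was part of these data, and RNA of the 9 genes was not measured in them.

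Somatosensory neurons of the DRG are sorted during development into nociceptors, which sense damaging stimuli and itch, low-threshold mechanoreceptors, which sense touch, and proprioceptors, which sense muscle stretch and express TrkC. Brn3a, a POU homeodomain TF encoded by *Pou4f1*, and Isl1, a LIM homeodomain TF, act in nearly all of these neurons and are needed as they leave their common early program, whereas Runx3 acts mainly in TrkC neurons. Several of the genes studied here act in this sorting. *Prdm12* encodes a zinc finger protein needed to make nociceptors, *Drgx* a paired-type homeodomain protein of nociceptors and their dorsal horn targets, and *Hmx1* an NKX-type homeodomain protein of sensory ganglia. *Maf* and *Mafa* encode basic leucine zipper proteins of low-threshold mechanoreceptors, and *Shox2* a homeodomain protein of touch neurons that express TrkB. *Tlx3* and its relative *Tlx2* encode homeodomain proteins of early sensory neurons, and *Cux2* a CUT homeodomain protein of a subset of DRG neurons.

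The peaks were consensus lists on the mouse genome mm10, with one list per assay and no value per sample. They held 64227 ATAC, 32655 H3K27Ac, 13443 Runx3, 32822 Brn3a and 16035 Isl1 peaks on the nuclear chromosomes. The lists gave no signal or read count, so depth is unknown, spread between samples was not measured, and every test below describes counting in the lists only. Among marker promoters, all 5 genes of TrkC neurons (*Ntrk3*, *Runx3*, *Pou4f1*, *Isl1* and *Etv1*) had an ATAC peak within 1 kb of a transcription start site (TSS), and 4 of 5 had H3K27Ac. All 3 pan-neuronal markers had both and none of 4 blood and endothelial markers had either. All 3 markers of mesenchyme had ATAC and 2 had H3K27Ac. Of 4 markers of glia and neural crest 2 had ATAC and 1 had H3K27Ac, and of 3 of nociceptors 2 had ATAC and 1 had H3K27Ac. The part of other cells in the peaks at the 9 genes was not tested.

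All 9 windows held at least 1 site where Runx3, Brn3a and Isl1 peaks overlapped one another (a 3-TF site). Such a site was found for 27.4% of all protein-coding genes. The sequences at the 3-TF site nearest the gene are shown for the 3 nociceptor genes (*Prdm12*, *Drgx* and *Hmx1*) and for the touch neuron genes *Shox2* and *Maf*, because the comparison below rests on these loci and the sites differ in their motifs. Sequence is from GRCm38.p6, the assembly behind mm10, over the Runx3 peak or the central 300 bp of a longer peak. Capitals mark the RUNX binding site (RBS), read as ACCACA or ACCGCA and, with G as the first base, as GCCACA or GCCGCA on either strand, and the homeodomain core TAAT on either strand (ATTA on the other).
*Prdm12*, chr2:31618556-31618855, plus strand: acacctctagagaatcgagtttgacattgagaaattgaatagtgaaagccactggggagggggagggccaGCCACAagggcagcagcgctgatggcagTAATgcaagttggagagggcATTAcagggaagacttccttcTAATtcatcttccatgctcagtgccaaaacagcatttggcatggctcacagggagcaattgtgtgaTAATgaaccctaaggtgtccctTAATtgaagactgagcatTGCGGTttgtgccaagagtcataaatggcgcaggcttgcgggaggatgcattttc
*Drgx*, chr14:32634217-32634516, plus strand: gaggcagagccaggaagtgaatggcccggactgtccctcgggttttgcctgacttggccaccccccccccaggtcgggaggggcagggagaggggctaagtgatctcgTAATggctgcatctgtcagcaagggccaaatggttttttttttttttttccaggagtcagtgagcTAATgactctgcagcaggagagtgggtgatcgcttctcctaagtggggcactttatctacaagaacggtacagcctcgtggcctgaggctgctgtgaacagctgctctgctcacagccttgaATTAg
*Hmx1*, chr5:35428147-35428444, plus strand: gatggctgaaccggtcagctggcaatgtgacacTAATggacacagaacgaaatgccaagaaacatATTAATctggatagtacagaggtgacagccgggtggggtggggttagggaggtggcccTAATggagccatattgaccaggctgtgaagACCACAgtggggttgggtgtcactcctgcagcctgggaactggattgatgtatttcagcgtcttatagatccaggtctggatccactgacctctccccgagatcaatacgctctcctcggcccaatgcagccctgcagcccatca
*Shox2*, chr3:66935445-66935744, plus strand: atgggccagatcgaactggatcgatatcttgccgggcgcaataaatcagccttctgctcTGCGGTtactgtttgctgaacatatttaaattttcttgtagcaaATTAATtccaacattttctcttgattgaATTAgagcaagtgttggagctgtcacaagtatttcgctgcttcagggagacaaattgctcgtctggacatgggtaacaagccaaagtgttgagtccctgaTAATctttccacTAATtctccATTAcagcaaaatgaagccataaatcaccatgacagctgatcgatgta
*Maf*, chr8:115707861-115708048, plus strand: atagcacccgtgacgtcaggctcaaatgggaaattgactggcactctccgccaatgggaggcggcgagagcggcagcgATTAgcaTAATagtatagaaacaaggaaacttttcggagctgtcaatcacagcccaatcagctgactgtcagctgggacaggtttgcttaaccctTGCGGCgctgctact

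The *Prdm12* stretch showed 2 RBS and 5 TAAT cores, and the whole Runx3 peak (608 bp) had 6 RBS. The *Hmx1* stretch had 1 RBS and 4 TAAT cores, the *Shox2* stretch 1 and 6, and the *Maf* stretch 1 and 2. The *Drgx* stretch had 3 TAAT cores and no RBS, so its Runx3 peak belonged to the Runx3_noRBS class. No RBS shared a base with a TAAT core in these stretches. Over all 13443 Runx3 peaks, central windows of 300 bp held an RBS in 70.7% and a TAAT core in 61.7%, and windows of 188 bp, the length at *Maf*, held them in 59.6% and 50.2%. The core is thus a common word. It was present in 96.4% of Brn3a peaks that the authors marked for V$BRNF, the Genomatix matrix family of Brn3a, and in 48.4% of those unmarked, and in 97.9% of Isl1 peaks marked for V$LHXF, the family of Isl1, against 54.9% of those unmarked.

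**Figure D1:**
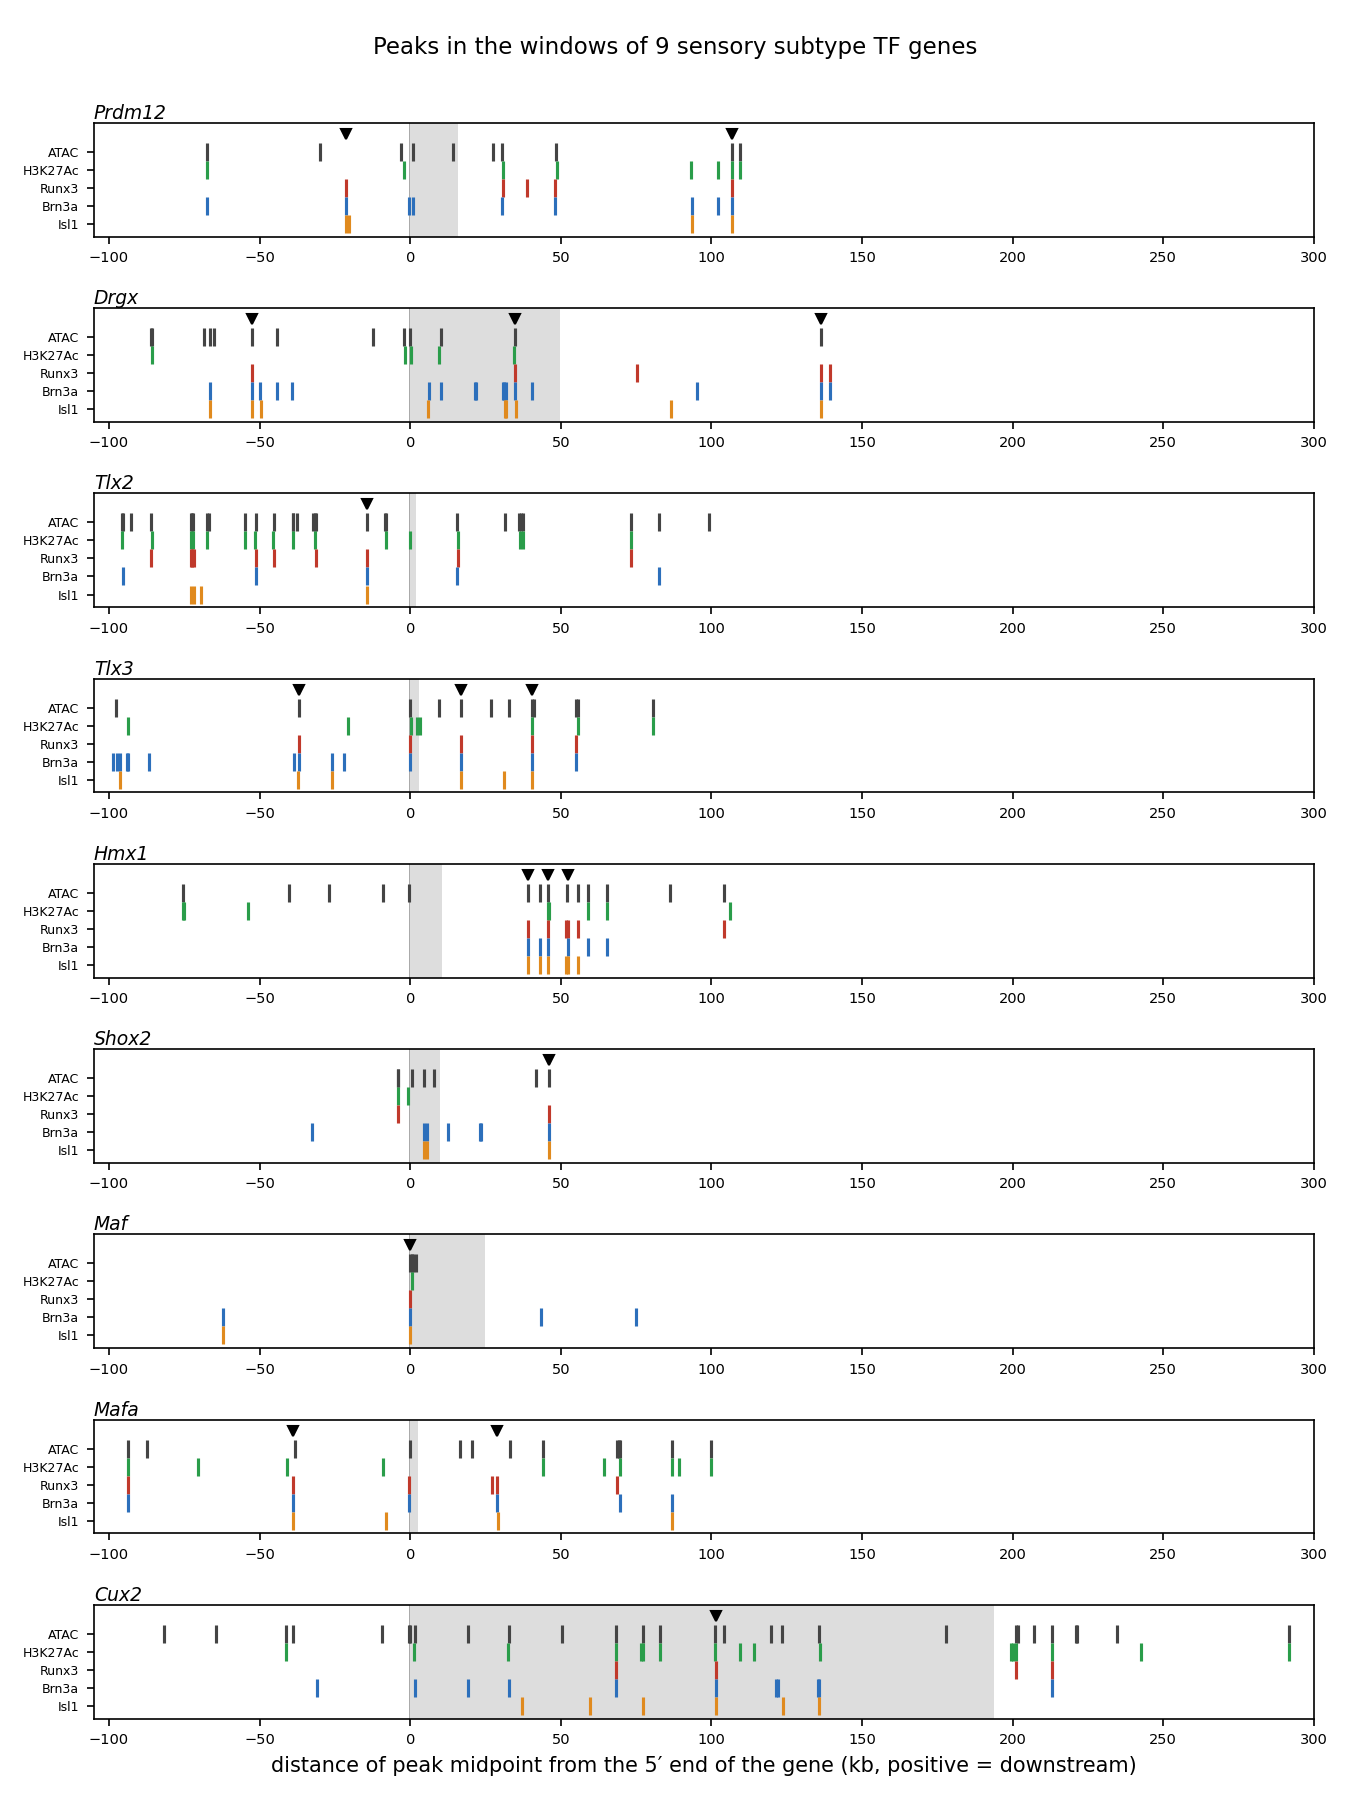
Peak midpoints in the 9 gene windows, by distance from the 5′ end of the gene in kb (negative, upstream), with 1 row of ticks for each of the 5 lists, the gene body shaded and 3-TF sites as triangles. At *Hmx1* 17 of 18 TF peaks lie in one stretch downstream, at *Drgx* 9 Brn3a peaks lie in the gene body, and at *Maf* all 4 ATAC peaks lie in promoters.

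Brn3a peaks were above the median of all protein-coding genes at all 9 genes and above the upper quartile of 5 peaks at 7 of them, and Isl1 peaks were above the upper quartile of 2 at 8. Runx3 peaks were above the upper quartile of 4 at 6 genes, H3K27Ac peaks above that of 9 at 3 and ATAC peaks above that of 15 at 2. The median window of a protein-coding gene was 217 kb long and held 9 ATAC, 5 H3K27Ac, 2 Runx3, 2 Brn3a and 1 Isl1 peaks. The medians over the 9 genes were 13 ATAC, 8 H3K27Ac, 5 Runx3, 7 Brn3a and 4 Isl1 peaks. Every list had a peak at all 9 genes. Among all protein-coding genes the share with at least 1 peak in the window was 91.1% for ATAC, 85% for H3K27Ac, 74.2% for Runx3, 80% for Brn3a and 61.8% for Isl1. These comparisons are descriptions of a list chosen with results of these data known.

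*Drgx* (chr14:32599407-32649246, plus strand) had the most Brn3a and Isl1 peaks of the 9 genes. Its window of 250 kb held 13 ATAC, 5 H3K27Ac, 5 Runx3, 17 Brn3a and 9 Isl1 peaks. Of all protein-coding genes, 99.0% had fewer Brn3a peaks and 98.6% fewer Isl1 peaks. V$BRNF marked 14 of the 17 Brn3a peaks, RBS 3 of the 5 Runx3 peaks and V$LHXF 6 of the 9 Isl1 peaks. The gene body alone held 9 Brn3a peaks, 8 of them Brn3a_BRNF. Of all 9, 2 overlapped ATAC, 4 overlapped Isl1 and 1 overlapped Runx3. In the whole Brn3a list 46.1% of peaks overlapped ATAC.

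*Tlx3* (chr11:33200752-33203589, minus strand) came next for Brn3a, with 12 ATAC, 8 H3K27Ac, 5 Runx3, 14 Brn3a and 6 Isl1 peaks, and 98.2% of genes had fewer Brn3a peaks. All 5 Runx3 peaks overlapped both ATAC and Brn3a. Of the 14 Brn3a peaks, 10 had V$BRNF and 6 overlapped ATAC.

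*Prdm12* (chr2:31640037-31655795, plus strand) had 10 ATAC, 8 H3K27Ac, 5 Runx3, 9 Brn3a and 4 Isl1 peaks. RBS were present in 4 of its 5 Runx3 peaks, V$BRNF in 5 of 9 Brn3a peaks and V$LHXF in all 4 Isl1 peaks. The window also holds *Fubp3*, *Exosc2* and *Abl1*, and no Runx3 or Isl1 peak had *Prdm12* as the protein-coding gene with the nearest TSS, compared with 2 of the 9 Brn3a peaks. The authors nevertheless count *Prdm12* among their high-confidence Runx3 targets, with lower RNA without Runx3 in separate RNA-seq. Their rule asks for a Runx3 peak with RBS in the gene body or the intergenic region up to the neighbouring genes.

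*Hmx1* (chr5:35389108-35399730, plus strand) has no other protein-coding gene in its window of 211 kb, which held 14 ATAC, 8 H3K27Ac and 6 peaks each of Runx3, Brn3a and Isl1. The TF peaks were not spread evenly. Of the 18 TF peaks, 17 lay in a stretch of 26.7 kb (chr5:35428088-35454753) that begins 39.0 kb downstream of the 5′ end of the gene. The stretch also held 7 of the 14 ATAC peaks and 4 of the 8 H3K27Ac peaks. All 6 Brn3a peaks overlapped ATAC, the same as at *Tlx2* (5 of 5) and unlike the other genes, where the share ran from 25% at *Maf* to 72.7% at *Cux2*.

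*Cux2* (chr5:121856366-122050102, minus strand) is the longest of the genes at 194 kb, in a window of 394 kb with 28 ATAC, 17 H3K27Ac, 4 Runx3, 11 Brn3a and 6 Isl1 peaks. All 4 Runx3 peaks overlapped both ATAC and H3K27Ac. *Tlx2* (chr6:83068324-83070293, minus strand) had 29 ATAC, 16 H3K27Ac, 10 Runx3, 5 Brn3a and 4 Isl1 peaks, but it shares its window with 18 other protein-coding genes. Of its 29 ATAC peaks 24 lay in promoters, and no ATAC or TF peak had *Tlx2* as the gene with the nearest TSS, so the counts are those of a gene-dense region.

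The touch neuron genes included the sparsest windows. *Maf* (chr8:115682942-115707794, minus strand), with no other protein-coding gene in its window of 225 kb, had 4 ATAC peaks, 1 H3K27Ac, 1 Runx3, 4 Brn3a and 2 Isl1 peaks. *Shox2* (chr3:66971727-66981771, minus strand) had 7 ATAC, 2 H3K27Ac, 2 Runx3, 7 Brn3a and 3 Isl1 peaks, and all 7 Brn3a peaks were Brn3a_BRNF. *Mafa* (chr15:75745490-75748228, minus strand) had 13 ATAC, 10 H3K27Ac, 6 Runx3, 6 Brn3a and 4 Isl1 peaks, with *Top1mt*, *Rhpn1* and *Zc3h3* nearby. Its H3K27Ac count was above those of the nociceptor genes, and the other 4 counts lay within their range. Most of these peaks were nearer to the TSS of a neighbour. *Mafa* had the nearest TSS for 2 ATAC peaks and for 1 peak each of H3K27Ac, Runx3, Brn3a and Isl1. With 50 kb on each side its H3K27Ac count was 3, against 3 at *Prdm12*, 4 at *Drgx* and 3 at *Hmx1*.

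The number of Brn3a peaks for each ATAC peak was 1.31 at *Drgx*, 1.17 at *Tlx3*, 1 at *Maf* and *Shox2*, 0.9 at *Prdm12*, 0.462 at *Mafa*, 0.429 at *Hmx1*, 0.393 at *Cux2* and 0.172 at *Tlx2*. The median over the 19993 protein-coding genes with an ATAC peak was 0.267, so 8 of the 9 genes were above it and *Tlx2* was below.

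**Figure D2:**
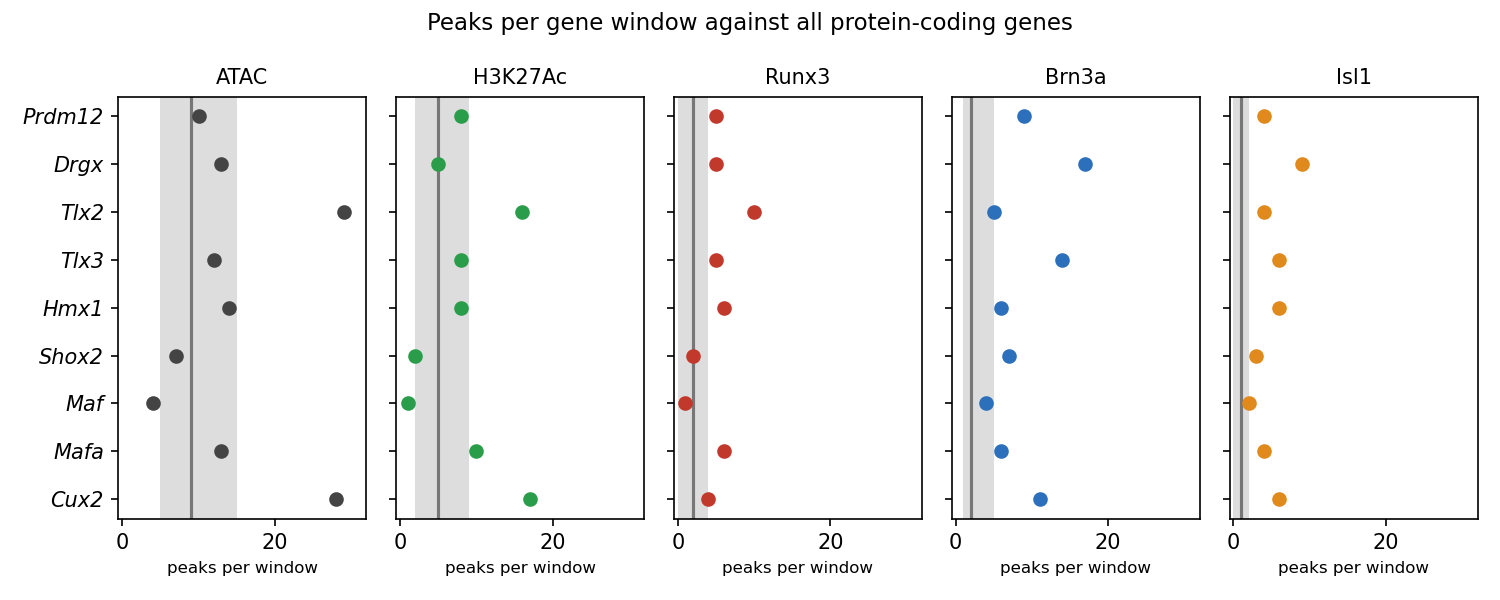
Peaks per gene window for each of the 9 genes (points) in the 5 lists, with the median (line) and quartiles (grey band) over the windows of 21938 protein-coding genes. Brn3a counts of 4 to 17 all exceed the median of 2, whereas ATAC counts of 4 to 29 fall on both sides of the median of 9.

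Own promoters differed in what they carried. An ATAC peak had its midpoint within 1 kb of a TSS of the gene itself for 7 of the 9 genes, compared with 64.8% of all protein-coding genes, and H3K27Ac did for 6 of 9, compared with 58.3%. Runx3 was found at 3 own promoters (27.1% of all genes), Brn3a at 5 (22.2%) and Isl1 at 2 (5.42%). *Maf* carried all 5 kinds of peak. Its H3K27Ac peak of 1978 bp (chr8:115706243-115708220) covered 3 ATAC peaks and, at -0.16 kb, Runx3, Brn3a and Isl1 peaks together, and it was the only H3K27Ac peak in the window. *Tlx3* carried Runx3 (chr11:33203625-33203864, 2 RBS) and Brn3a (with V$BRNF) under ATAC and H3K27Ac, with no Isl1. *Mafa* carried Runx3 (chr15:75748349-75748630, 1 RBS) and Brn3a (no V$BRNF) under ATAC, without H3K27Ac.

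*Prdm12* had 2 Brn3a peaks at its promoter and neither an ATAC nor an H3K27Ac peak by this definition. The Brn3a peaks lay at -0.39 kb, with V$BRNF and no ATAC, and at 0.98 kb, without the motif. The second overlapped an ATAC peak whose edge lay 915 bp from the TSS, and the nearest H3K27Ac peak (chr2:31637618-31638357) lay 1680 bp away. *Cux2* carried Brn3a at 3 positions within 1 kb of one of its 11 annotated TSS, and at the one 136 kb inside the gene (chr5:121914100-121914370) Brn3a, Isl1, ATAC and H3K27Ac peaks overlapped. *Drgx* and *Shox2* had ATAC and H3K27Ac but no TF peak at their promoters. *Hmx1* had ATAC only (chr5:35388435-35389070, 636 bp), and its nearest H3K27Ac peak was 45.5 kb from a TSS. *Tlx2* had H3K27Ac only (chr6:83070093-83070595), its nearest ATAC peak lying 7.65 kb away.

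The widest H3K27Ac peak of a window lay at a promoter of the gene itself for *Maf* (1978 bp), *Cux2* (1558 bp) and *Drgx* (871 bp). At *Tlx2* (2355 bp, *Htra2*), *Mafa* (1675 bp, *Top1mt*), *Tlx3* (1664 bp, *Npm1*) and *Shox2* (586 bp, *Rsrc1*) it lay at the promoter of a neighbour. At *Prdm12* it was an intronic peak of *Abl1* (chr2:31732375-31733986, 1612 bp) and at *Hmx1* an intergenic one in the downstream stretch (chr5:35447831-35448790, 960 bp). H3K27Ac covered from 0.508% of the window at *Shox2* to 9.11% at *Tlx2*.

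The 17 sites with Runx3, Brn3a and Isl1 were in open chromatin for the most part and away from promoters. Of them, 14 overlapped ATAC, 6 overlapped both ATAC and H3K27Ac, and 2 lay in promoters. Over all 3699 such sites in the lists, 79.3% overlapped ATAC, 37.4% overlapped both and 16.2% lay in promoters, so the 17 sites (82.4%, 35.3% and 11.8%) were close to the lists as a whole. RBS was present in 12 of 17 (70.6%, 67.6% over the lists), V$BRNF in 14 (82.4%, 72.6%), V$LHXF in 13 (76.5%, 77.7%) and all 3 motifs in 7 (41.2%, 42.9%).

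*Hmx1*, *Drgx* and *Tlx3* had 3 such sites each, a number that 97.5% of protein-coding genes did not reach. The *Hmx1* sites were intergenic and all within the downstream stretch. The one at 39.2 kb (chr5:35428147-35428444, 1 RBS) had all 3 motifs and ATAC, the one at 45.8 kb (chr5:35434706-35435109) had ATAC and H3K27Ac with V$BRNF and V$LHXF but no RBS, and the one at 52.3 kb (chr5:35441207-35441565, 1 RBS) had ATAC and lacked V$BRNF. Only *Hmx1* among the genes with more than 1 site was the nearest protein-coding gene for each of its sites.

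At *Drgx* the site at 35.0 kb (chr14:32634205-32634528) lay in an intron of the gene under ATAC and H3K27Ac, with V$BRNF but neither RBS nor V$LHXF. The others lay in a coding exon of *Ercc6* at -52.5 kb (chr14:32546796-32546985, no RBS) and between genes at 136 kb (chr14:32735399-32735943, 3 RBS with V$BRNF and V$LHXF), both with ATAC only. At *Tlx3* the site at 16.8 kb (chr11:33186707-33186921, 1 RBS) was nearest to *Tlx3*, the one at 40.4 kb (chr11:33163008-33163465, 2 RBS) lay at the promoter of *Npm1*, and the one at -36.8 kb (chr11:33240042-33240822, no RBS) lay in an intron of *Ranbp17*. All 3 had ATAC and only the *Npm1* promoter had H3K27Ac.

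*Prdm12* had the Runx3 peak with the most RBS of any in the 9 windows. This intergenic site at -21.3 kb (chr2:31618402-31619009) held 6 RBS, a number reached by 0.781% of Runx3 peaks, together with V$BRNF and V$LHXF, but no ATAC or H3K27Ac. That share is over peaks of all widths, and this peak was 608 bp wide against a list median of 281 bp. The nearest ATAC peak lay 8.21 kb away. Counting every annotated transcript start of protein-coding genes, the nearest TSS was a start of *Fubp3*, 3.53 kb away. The ATAC peak at a promoter in a UTR of *Fubp3* lay farther off, at -67.4 kb. The other *Prdm12* site, at 107 kb in an intron of *Abl1* (chr2:31746910-31747194), was the reverse, with ATAC and H3K27Ac and no RBS.

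*Mafa* had the only other 3-TF sites without ATAC. They lay at 28.9 kb (1 RBS) and at -38.8 kb in an intron of *Zc3h3* (chr15:75786881-75787165, 2 RBS), both with all 3 motifs and without H3K27Ac, and the nearest ATAC peaks were 4.0 and 0.395 kb away. *Maf* had its single site at the promoter (chr8:115707861-115708048, 1 RBS), with V$LHXF and no V$BRNF. *Shox2* had its site at 46.2 kb (chr3:66935301-66935888, 1 RBS) with ATAC and V$BRNF, *Cux2* in its own intron at 101 kb (chr5:121948512-121948831, 1 RBS) with ATAC, H3K27Ac and all 3 motifs, and *Tlx2* at -14.3 kb (chr6:83084470-83084763, 2 RBS) with ATAC and all 3 motifs, 1.75 kb from the TSS of *Lbx2*.

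**Figure D3:**
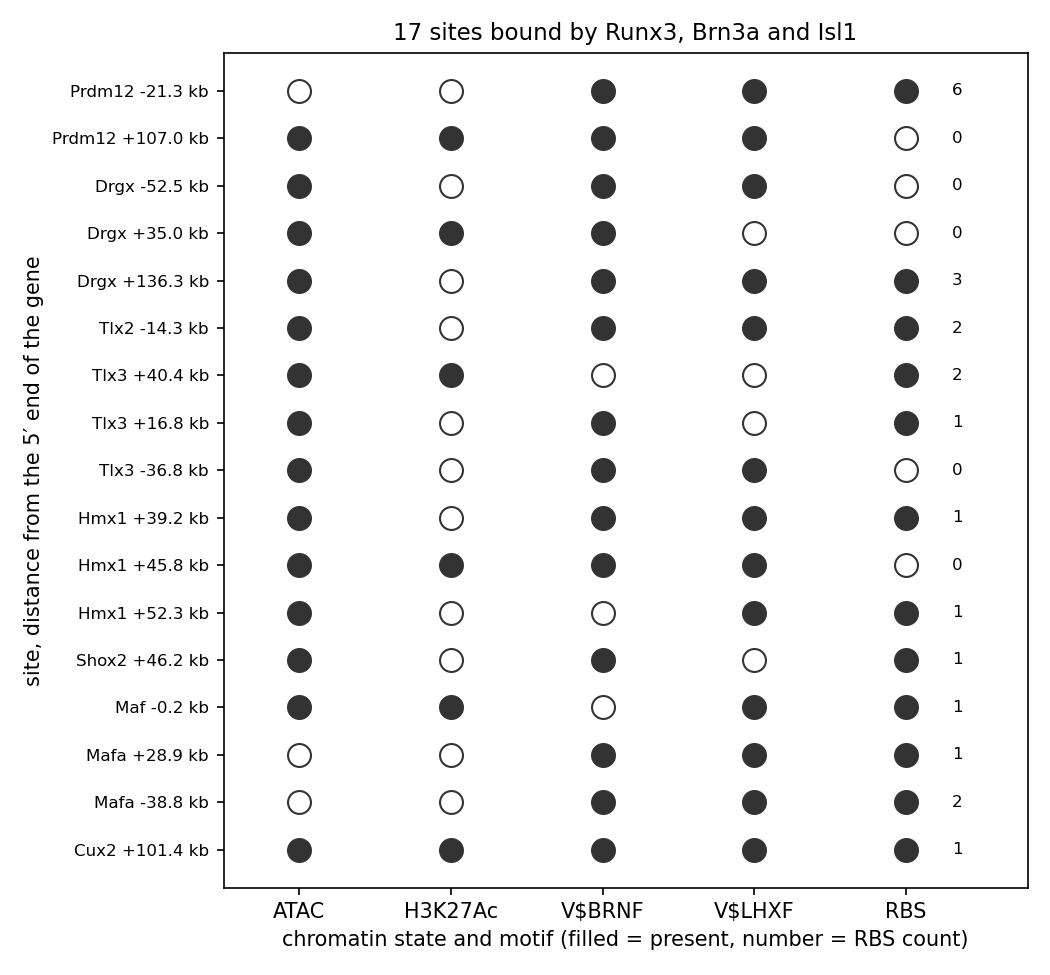
The 17 sites of Runx3, Brn3a and Isl1 in the 9 windows (rows, with the distance from the 5′ end of the gene in kb), with filled circles for overlap with ATAC and H3K27Ac, for V$BRNF and V$LHXF, and for RBS, whose number stands at the right. The 3 sites without ATAC, 1 at *Prdm12* and 2 at *Mafa*, each carry all 3 motifs.

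Runx3 peaks with several RBS were not always shared with the other TFs. The Runx3 peak with the most RBS at *Drgx* (4 RBS, chr14:32674626-32674820) lay without ATAC, H3K27Ac, Brn3a or Isl1, and the one at *Tlx2* (4 RBS, chr6:83115393-83115676, in a UTR of *Mogs*) had ATAC and H3K27Ac only. At *Shox2* the peak with 3 RBS (chr3:66985630-66986065) lay at a promoter of *Rsrc1* with ATAC and H3K27Ac. At *Mafa* the peak with 3 RBS (chr15:75841747-75842074, *Zc3h3*) had ATAC, H3K27Ac and Brn3a. At *Hmx1* the peak with 2 RBS (chr5:35493181-35493379) had ATAC only. At *Tlx3* the site at the promoter of *Npm1* and the peak at its own promoter, which had no Isl1, held 2 RBS each. At *Maf* the only Runx3 peak was its 3-TF site, and at *Cux2* no peak held more than 1 RBS.

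Brn3a alone was the most frequent kind of TF site, at the 9 genes (35.6% of sites) as in the whole lists (42.7%). Merging overlapping TF peaks gave 104 sites in the 9 windows, of which 37 had Brn3a alone, 17 all 3 TFs, 14 Brn3a and Isl1, 12 Runx3 alone, 11 Runx3 and Brn3a, 9 Isl1 alone and 4 Runx3 and Isl1. ATAC was present at 14 of the 37 Brn3a-alone sites and 5 of the 14 Brn3a and Isl1 sites, compared with 9 of the 12 Runx3-alone and 10 of the 11 Runx3 and Brn3a sites. In the whole lists ATAC was present at 29.6% of Brn3a-alone, 48.8% of Brn3a and Isl1, 72.5% of Runx3-alone and 86.9% of Runx3 and Brn3a sites, so the order of Runx3-alone above Brn3a-alone sites was also that of the lists. Sites with all 3 TFs made up 16.3% of the sites at the 9 genes and 8.48% in the lists, a difference that was not tested because the genes were chosen with these results known. Counted by peak, ATAC overlapped 36 of 44 Runx3 peaks at the 9 genes (81.8%, whole list 77.9%), 43 of 79 Brn3a peaks (54.4%, 46.1%) and 24 of 44 Isl1 peaks (54.5%, 47.1%). In promoters lay 20 of the Runx3 peaks (45.5%, whole list 46.0%), 19 of the Brn3a peaks (24.1%, 17.7%) and 8 of the Isl1 peaks (18.2%, 9.92%). The share with the own motif was 70.5% for Runx3, 72.2% for Brn3a and 75% for Isl1, against 71.4%, 72.1% and 71.4% in the whole lists.

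**Figure D4:**
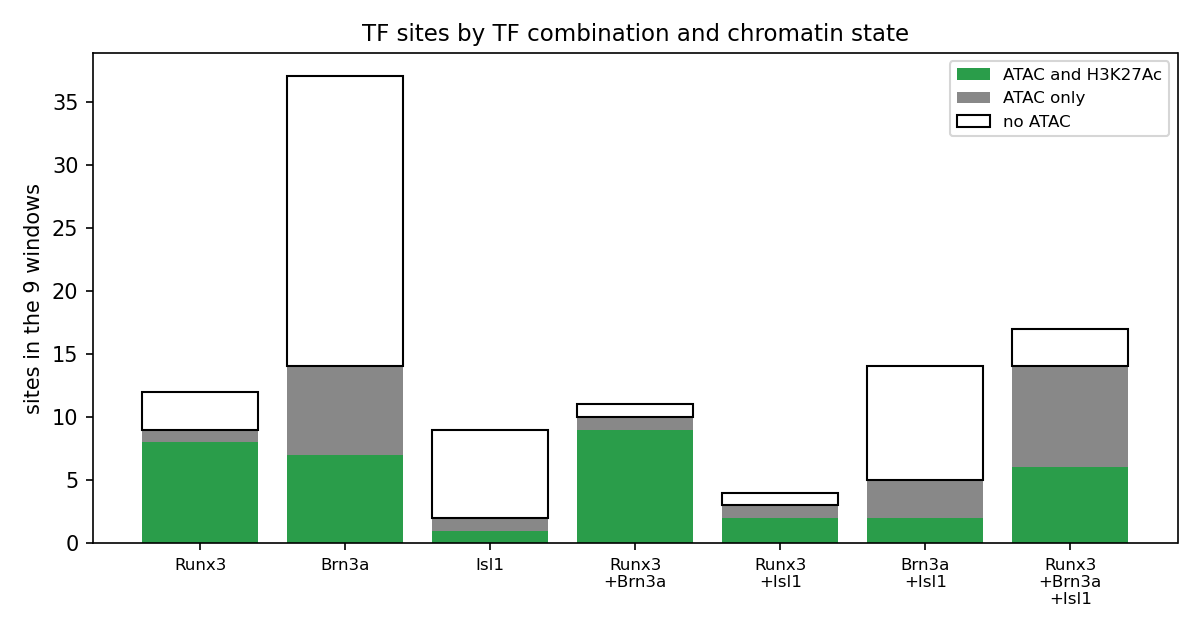
Number of merged TF sites in the 9 windows by combination of Runx3, Brn3a and Isl1 peaks, divided into sites with ATAC and H3K27Ac (green), with ATAC and no H3K27Ac (grey) and without ATAC (white). Sites with Brn3a alone (37, of which 14 have ATAC) are the tallest bar, and 14 of the 17 sites with all 3 TFs have ATAC.

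The nociceptor genes were compared with the touch neuron genes (*Maf*, *Mafa* and *Shox2*) in the number of peaks and in the share of peaks with overlaps or motifs. They had 37 ATAC, 21 H3K27Ac, 16 Runx3, 32 Brn3a and 19 Isl1 peaks in 676 kb, and the touch neuron genes 24, 13, 9, 17 and 9 in 638 kb. These totals were not tested, since 3 genes against 3 cannot give an exact two-sided permutation p below 0.10. The groups overlapped gene by gene in ATAC (10, 13 and 14 against 7, 4 and 13), H3K27Ac (8, 5 and 8 against 2, 1 and 10) and Runx3 (5, 5 and 6 against 2, 1 and 6), in each of which *Mafa* had the highest count of the touch neuron genes, and in Brn3a (9, 17 and 6 against 7, 4 and 6) and Isl1 (4, 9 and 6 against 3, 2 and 4). The *Mafa* counts were mostly of peaks nearer to a neighbour. Kept to the gene with the nearest TSS, ATAC counts were 3, 5 and 11 against 5, 4 and 2. H3K27Ac counts were then 1, 4 and 5 against 1, 1 and 1. Runx3 counts were 0, 1 and 5 against 1, 1 and 1, so the groups still overlapped. ATAC peaks outside promoters numbered 6 at *Prdm12*, 10 at *Drgx*, 12 at *Hmx1*, 4 at *Shox2*, 0 at *Maf* and 6 at *Mafa*.

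None of 10 shares of peaks passed the threshold of 0.05 between the groups in two-sided Fisher's exact tests, whose smallest p was 0.364 and whose adjusted p (Benjamini-Hochberg over the 10) was 1 in each case. Brn3a overlapped 17 of 37 ATAC peaks at nociceptor genes (45.9%, 95% Wilson interval 31.0 to 61.6%) and 8 of 24 at touch neuron genes (33.3%, 18.0 to 53.3%), with an odds ratio of 1.69 (0.521 to 5.76) and an exact p of 0.427. At the single genes this share was 50% at *Prdm12*, 46.2% at *Drgx* and 42.9% at *Hmx1*, all above 38.5% at *Mafa*, 28.6% at *Shox2* and 25% at *Maf*. It was 24.2% in the whole ATAC list. Isl1 overlapped 10 of 37 (27.0%) and 4 of 24 (16.7%) ATAC peaks, with an odds ratio of 1.83 (0.445 to 9.2) and an exact p of 0.534. Runx3 overlapped 11 of 37 (29.7%) and 7 of 24 (29.2%), with an odds ratio of 1.03 (0.292 to 3.79), and H3K27Ac 15 of 37 (40.5%) and 12 of 24 (50%), with an odds ratio of 0.686 (0.214 to 2.17). Any of the 3 TFs was present at 19 of 37 (51.4%) and 11 of 24 (45.8%) ATAC peaks, with an odds ratio of 1.24 (0.395 to 3.96).

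Of Brn3a peaks, 17 of 32 (53.1%) at nociceptor genes and 7 of 17 (41.2%) at touch neuron genes overlapped ATAC, with an odds ratio of 1.6 (0.424 to 6.36), and 15 of 32 (46.9%) and 8 of 17 (47.1%) overlapped Isl1, with an odds ratio of 0.993 (0.261 to 3.81). V$BRNF marked 23 of 32 (71.9%) and 12 of 17 (70.6%) Brn3a peaks, with an odds ratio of 1.06 (0.227 to 4.56), and V$LHXF 15 of 19 (78.9%) and 7 of 9 (77.8%) Isl1 peaks, with an odds ratio of 1.07 (0.0788 to 9.78). RBS were present in 11 of 16 (68.8%) and 8 of 9 (88.9%) Runx3 peaks, with an odds ratio of 0.288 (0.00518 to 3.37) and an exact p of 0.364. By gene the RBS share was 80% at *Prdm12*, 60% at *Drgx* and 66.7% at *Hmx1*. These were all below 83.3% at *Mafa* and 100% at *Shox2* (2 of 2 peaks) and *Maf* (1 of 1). All 10 intervals include an odds ratio of 1 and are wide, and they take peaks as independent. Differences of moderate size were not detectable with these numbers of peaks and with 3 genes in each group. Peaks of 1 gene share a locus and are not replicates, and outside promoters the share of ATAC peaks with H3K27Ac was higher at the nociceptor genes (9 of 28 against 1 of 10, exact p of 0.236), the opposite direction.

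**Figure D5:**
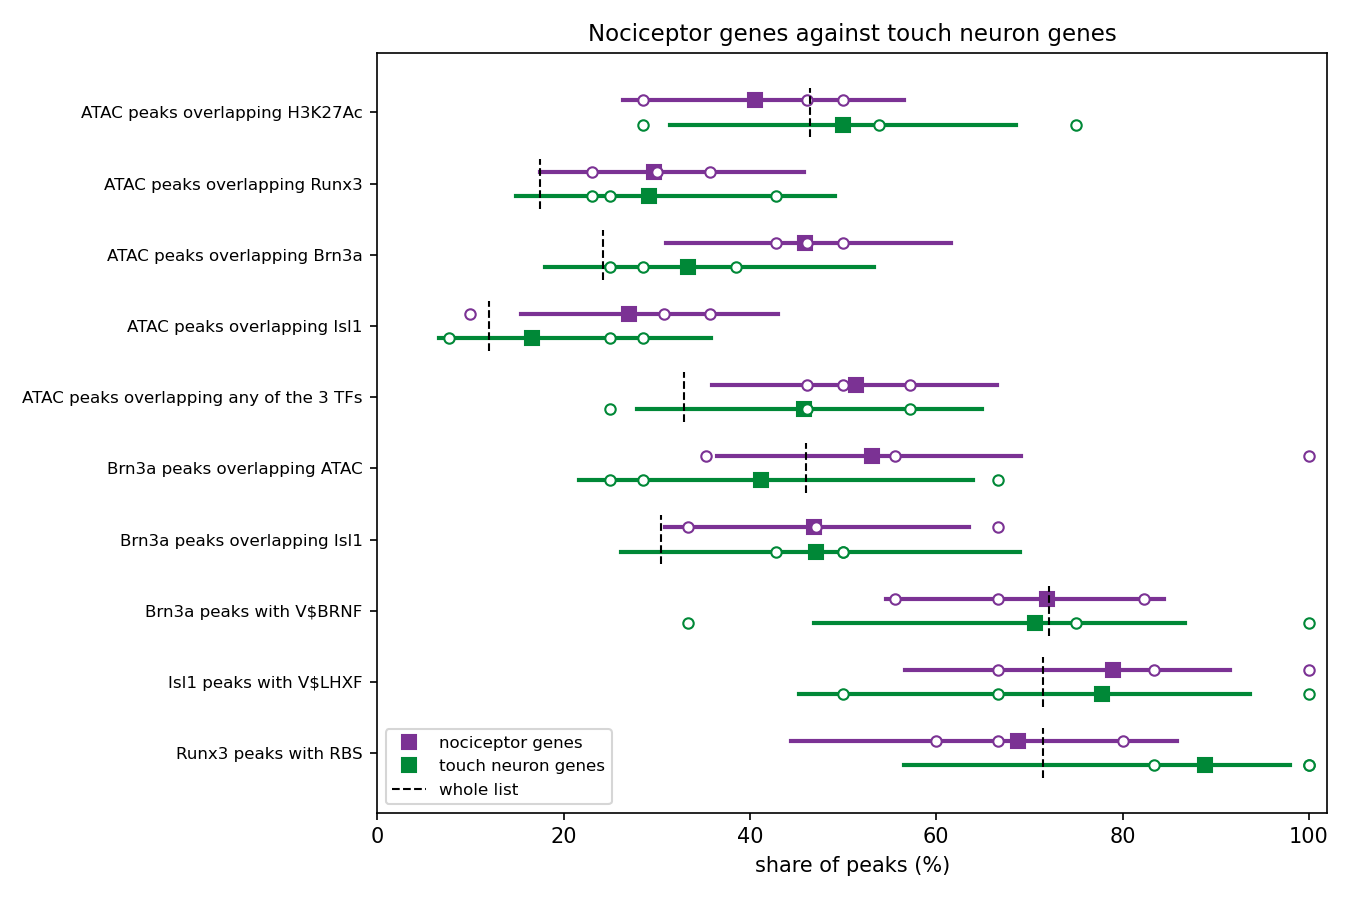
Share of peaks in percent for the 10 comparisons, at nociceptor genes (purple) and touch neuron genes (green), as squares with 95% Wilson intervals, with open circles for the 3 genes of each group and a dashed line for the whole list. The intervals of the groups overlap in all 10 comparisons, and genes of a group lie as far apart as 33.3% and 100% for V$BRNF at *Mafa* and *Shox2*.

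Other TF genes of sensory neurons were counted in the same way. In a list of 24 such genes, among them *Runx1*, *Pou4f1*, *Isl2*, *Etv1*, *Meis1* and *Neurog1*, all had ATAC, H3K27Ac and Brn3a peaks in their windows, 22 had Runx3 peaks, 23 Isl1 peaks and 15 a 3-TF site. Their medians were 13.5 ATAC, 4.5 H3K27Ac, 2.5 Runx3, 7 Brn3a and 4 Isl1 peaks and 1 3-TF site, and the 9 genes had medians of 13, 8, 5, 7, 4 and 2. The highest counts of the 24, 71 H3K27Ac, 49 Runx3 and 87 Isl1 peaks, were all at *Runx3*. For Brn3a the highest count was 26 at *Casz1*, and *Runx3* had 14. The transgene also carries the *Runx3* locus, and its part in these counts was not tested.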

How the data were processed

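The deposited files held consensus peak lists on mm10. An entry is an interval, with its RBS number in the Runx3 list, and with V$BRNF marked in the Brn3a list and V$LHXF in the Isl1 list. Per the labels and the study's methods, the authors trimmed reads with cutadapt, aligned them (ATAC-seq with a version of Bowtie), called peaks with MACS2 and kept peaks found in 2 of 3 ATAC, 3 of 5 H3K27Ac, 4 of 8 Runx3, 2 of 2 Brn3a and 2 of 3 Isl1 samples, leaving out blacklisted regions and peaks lying mostly in repeats. For ATAC-seq, duplicates were removed with Picard 1.119 and short fragments selected, while for CUT&RUN short fragments were selected and duplicates kept, with peaks called against the serum controls. The deposited lists held no counts or signal, so a gene with no peak may still be weakly bound or accessible.

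The 9 genes, the gene groups and the marker lists were chosen with earlier results of these data known. All 9 genes are described, and single sites are named by rule: 3-TF sites, the Runx3 peak with the most RBS, own promoter peaks and the widest H3K27Ac peak. The stretch downstream of *Hmx1*, the gene body of *Drgx* and the ratio of Brn3a to ATAC peaks were singled out after their values were seen. Genes were those of GENCODE M21, with *Drgx* matched through RefSeq synonyms. Starts were read as 1-based, with which the RBS recounted in GRCm38.p6 equalled the listed number for all 13443 Runx3 peaks. Before overlaps of 1 bp were sought, short peaks were extended about the midpoint, to 500 bp for ATAC and to 300 bp for the rest. A promoter was 1 kb on each side of any annotated TSS. In the Brn3a list, 1 peak on the mitochondrial chromosome was left out. The 10 shares were compared by two-sided Fisher's exact test with conditional odds ratios and exact 95% intervals, and a threshold of 0.05 after adjustment. Some marker genes and the sequence of 1 site are not reported here. Overlap, window and motif code was tested on simulated intervals. Python 3.11.15, scipy 1.17.1, numpy 2.4.6 and pysam 0.24.0 were used.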

Additional observations from a re-analysis of the deposited data

How the results depend on the processing

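The 10 comparisons were repeated under 124 combinations of result and setting, and none reached the threshold, with a smallest adjusted p of 0.427 (Fisher's exact test, two-sided). The sign was kept in 94, the difference was 0 in 1 (ATAC peaks with Isl1, outside promoters and nearest, 6 of 15 against 2 of 5) and the sign turned in 29. The cause was not tested. Differences below are nociceptor minus touch neuron genes, in percentage points. With 50 kb on each side, V$BRNF was at -10.7 and V$LHXF at -7.14. With 200 kb, ATAC peaks with Runx3 were at -8.36, ATAC peaks with any TF at -8.28, Brn3a peaks with Isl1 at 4.01 and V$BRNF at -3.92. With peaks kept only where the gene had the nearest TSS, ATAC peaks with H3K27Ac were at 9.57, ATAC peaks with Runx3 at -0.957, Brn3a with Isl1 at 1.60 and V$BRNF at -5.35. Outside promoters, ATAC with H3K27Ac was at 22.1 (9 of 28 against 1 of 10), Brn3a with Isl1 at 5.56 and V$BRNF at -18.5. With both limits together, a setting chosen after seeing the data, these were at 40.0 (6 of 15 against 0 of 5), 8.89 and -20.0. Without *Prdm12*, Brn3a with Isl1 was at 5.12 and V$LHXF at -4.44. Without *Drgx*, V$BRNF was at -10.6. Without *Hmx1*, ATAC with Runx3 was at -3.08 and V$LHXF at -0.855. Without *Maf*, ATAC with Runx3 was at -0.27, Brn3a with Isl1 at 0.721 and V$LHXF at -6.77. Without *Mafa*, ATAC with Runx3 was at -6.63, ATAC with Isl1 at -0.246, Brn3a with Isl1 at 1.42 and V$BRNF at -19.0. Without *Shox2*, V$LHXF was at -4.39. The overlap settings turned no sign. Some differences that kept their sign also moved by over 1.5 times. Brn3a peaks with ATAC (11.9 as reported) ran from 1.13 without *Hmx1* to 32.2 without *Drgx*, ATAC peaks with Brn3a (12.6) from 1.63 with 200 kb to 26.4 outside promoters, ATAC peaks with any TF (5.52), where positive, from 1.35 without *Maf* to 33.6 outside promoters, and RBS (-20.1) from -16.2 without *Drgx* to -50.0 with the nearest TSS.

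The counts of peaks depend on the window. With 200 kb on each side the 9 genes had 204 ATAC, 126 H3K27Ac and 74 Isl1 peaks, and with 50 kb 45 H3K27Ac. Kept to the gene with the nearest TSS, they had 49 ATAC, 28 H3K27Ac, 13 Runx3, 41 Brn3a and 24 Isl1 peaks. Outside promoters they had 69 ATAC, 40 H3K27Ac and 24 Runx3 peaks. No paired analysis was possible because each list is 1 pooled set over its samples, and for the same reason no replicate could be left out. The lists give no depth.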
